A study of Mus musculus with 30 samples.

Results

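The Fos and Jun genes encode the subunits of AP-1, a transcription factor in which a Jun protein pairs with another Jun protein or with a Fos protein. The 7 genes described here are Fos, Fosb, Fosl1 and Fosl2 of the Fos family and Jun, Junb and Jund of the Jun family. They were taken by name from a table of read counts for 33924 genes, and all 7 were in the table and passed the filter on low counts that left 19016 genes to test. Each protein has a basic region that contacts DNA and a leucine zipper that holds the partners together. Fos proteins bind DNA only with a partner, whereas Jun proteins can also pair among themselves. Fos, Fosb, Jun and Junb are immediate early genes, transcribed within minutes of MAPK or stress signalling without new protein synthesis, and they also rise when a tissue is taken apart into single cells. Fosl1 needs lasting ERK activity in many cell types and is itself an AP-1 target, Fosl2 is a related late member, and Jund is usually made at a steadier level. In thyroid tumours the MAPK cascade that an activated Braf drives ends, among other targets, on these genes.

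RNA-seq of mouse thyroid gave 28 libraries in 10 groups. The MEK inhibitor CH5126766, labelled CKI, or its vehicle was given for 8 days to mice of 4 genotypes, which were killed about 2 h after the last dose. The genotypes were Braf(V600E), here called Braf, and Braf(V600E) with Arid1a KO, Arid2 KO or Smarcb1 KO, each of which lacks a subunit of the SWI/SNF chromatin remodelling complex. The 2 other groups were untreated Arid1a KO and untreated wild type, so all treated mice, those given vehicle included, carried the Braf allele and the untreated mice did not. Each group had 3 libraries, apart from CKI and vehicle in Braf Arid2 KO with 2 each. The promoter or Cre behind the alleles, the age of the mice and whether samples were single animals are not given in the sources used here. The p-values then measure the spread between these samples, which may be technical. One text on every sample says that wild-type, Arid2 and Smarcb1 thyroids were frozen, and another that YFP+ cells were sorted from dissociated glands, so between genotypes the preparation and the genotype cannot be told apart.

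Libraries held 23879271 to 34400066 counts. Levels are CPM, a gene's counts relative to the TMM-scaled size of its library, and values of single libraries are in order of replicate number. Differences are log2 fold changes with a standard error (SE) from edgeR's quasi-likelihood test, and a gene is called at a Benjamini-Hochberg adjusted p under 0.05 over all genes tested. Smarcb1 fell to 10.1 ± 7.80 CPM in Braf Smarcb1 KO with vehicle, against 96.2 ± 37.2 CPM in Braf with vehicle (SD, n = 3 each, adjusted p = 0.000592, edgeR). It was also called lower in untreated Arid1a KO (33.3 ± 25.5 CPM) than in wild type (113 ± 38.4 CPM, n = 3 each, adjusted p = 0.0373, edgeR). Arid2 was called lower in Braf with vehicle than in wild type (30.1 ± 3.28 CPM, n = 3, adjusted p = 0.0397, edgeR). Gene counts of Arid1a and Arid2 were not called lower in their knockouts: Arid1a averaged 14.4 ± 2.11 CPM in Braf Arid1a KO and 21.8 ± 9.67 CPM in Braf (n = 3 each), and Arid2 26.5 ± 15.6 CPM in Braf Arid2 KO (n = 2) and 14.5 ± 6.62 CPM in Braf (n = 3), all with vehicle. The deleted exons are not given, so these counts do not check those labels. The summed level of 5 thyroid follicular markers (Tg, Pax8, Nkx2-1, Foxe1 and Tshr) ran from 120.4 to 202 CPM in Braf Smarcb1 KO with vehicle up to 59732 to 156918 CPM in wild type, with every marker detected in every library. In such bulk samples, fewer cells of a type and less RNA per cell cannot be told apart.

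The promoter sequences of Jun, Junb and Fos are shown because the results turn most on Jun and Junb and because Fos is the most abundant member. Each is the 250 bases before the RefSeq start, 5′ to 3′ on the gene's strand, in build GRCm38.p6, and capitals mark matches to the motifs searched. Jun lies at chr4:95052223-95052472 (minus strand), Junb at chr8:84978749-84978998 (minus strand) and Fos at chr12:85473640-85473889 (plus strand).
Jun: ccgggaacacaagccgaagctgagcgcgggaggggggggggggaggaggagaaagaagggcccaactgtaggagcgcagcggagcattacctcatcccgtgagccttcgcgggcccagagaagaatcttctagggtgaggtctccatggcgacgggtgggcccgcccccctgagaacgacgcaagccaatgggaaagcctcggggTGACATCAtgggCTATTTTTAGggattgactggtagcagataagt
Junb: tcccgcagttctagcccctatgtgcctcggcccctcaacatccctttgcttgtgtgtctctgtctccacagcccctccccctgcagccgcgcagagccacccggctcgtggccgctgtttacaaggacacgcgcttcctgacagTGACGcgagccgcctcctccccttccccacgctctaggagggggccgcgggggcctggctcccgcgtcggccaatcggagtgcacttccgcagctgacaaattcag
Fos: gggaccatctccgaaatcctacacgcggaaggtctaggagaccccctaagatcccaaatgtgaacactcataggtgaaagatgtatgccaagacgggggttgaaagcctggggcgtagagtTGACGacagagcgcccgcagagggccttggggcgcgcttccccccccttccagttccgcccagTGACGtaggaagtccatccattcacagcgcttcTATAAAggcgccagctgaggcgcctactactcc
Jun holds TGACATCA 45 bases before the start, a variant of the AP-1 and cAMP response sites known in human JUN to bind Jun with Atf2, and a MEF2 box 33 bases before it. Fos holds TGACG 129 and 66 bases and TATAAA 33 bases before the start, and Junb holds TGACG 106 bases before it.

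Motifs were searched on both strands in the 6 members that the RefSeq table held, all but Fosl1. Of 32851 promoters of the same length, 7.49% held TGACNTCA, 17.77% held TGACG (which can overlap TGACNTCA), 2.92% a MEF2 box and 12.37% TATAAA. The consensus AP-1 site TGANTCA (6.75% of promoters) and the CArG box bound by serum response factor (1.47%) had no match in these windows, and in Fosb the only match was TGACG, 60 bases before the start. Bases farther upstream were not searched, so a site more than 250 bases before the start would be missed. A match is a description of letters and not a measured site.

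Fos was the most abundant member per length in all 28 libraries, at 929 to 6048 CPM per kb of exon, and was the gene with the most counts of all in 1 library of Braf Arid1a KO with vehicle. Junb came second in 26 libraries, at 13.0 to 2308 CPM per kb over all 28, and Fosb in the other 2, at 20.9 to 176 CPM per kb. Jun spanned 19.2 to 1081 CPM per kb, while Fosl1 (0.638 to 28.4), Fosl2 (2.32 to 10.7) and Jund (3.50 to 35.2) were low throughout. All 7 genes together made up 0.278% to 2.30% of a library's counts. From the lowest to the highest library, Junb varied 177-fold, Jun 56.1-fold and Fosl1 44.5-fold, against 10.1-fold for Jund, 8.45-fold for Fosb, 6.51-fold for Fos and 4.62-fold for Fosl2. Fosl1 and Jund are uncertain in one respect, and Jun and Junb over a smaller part of their exons. In GENCODE M21 (GRCm38) 57.2% of the exon bases of Fosl1 lie opposite exons of Ccdc85b, and 52.6% of those of Jund opposite exons of Gm11175, and how strand was counted is not given. Reads there could be given to either gene, to both or to none. Gm11175 was listed at 0 in all 28 libraries, and Ccdc85b at 1.34 to 57.3 CPM. Of the exon bases of Junb, 7.5% lie opposite Prdx2, which stood at 194 to 685 CPM. Of those of Jun, 7.3% lie opposite Junos, which has no counts here.

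**Figure D1:**
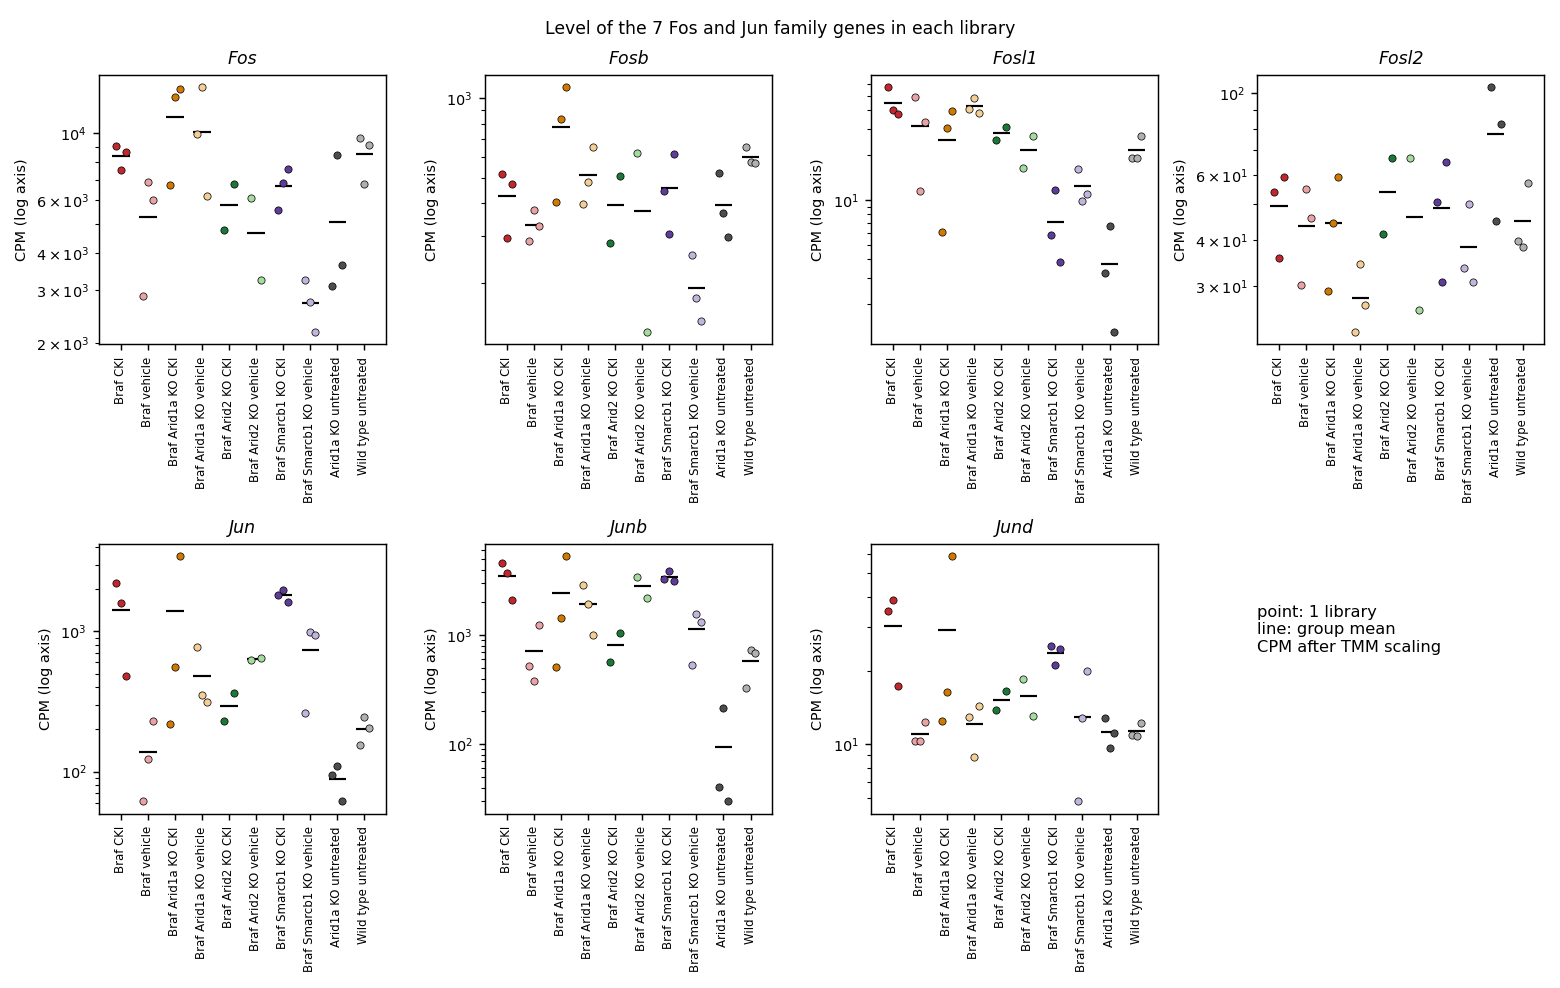
Level of each member in each library, in CPM after TMM scaling on a log axis, by group. Points are libraries and lines are group means. The group means of Jun and Junb vary more than those of Fos, and Junb is lowest in the untreated Arid1a KO group.

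In Braf thyroids CKI went with higher levels of the Jun family, while the Fos family was not called. Jun, Junb and Jund rose, which is 3 of the 7 members, beside 13.0% of all genes called in either direction and 7.96% called higher. Jun, the AP-1 subunit that can act as a homodimer, had 2215, 1599 and 479 CPM in the CKI libraries and 61.4, 124 and 228 CPM in the vehicle libraries. The groups did not overlap, with CKI replicate 5 the lowest of its group. The log2 fold change of Jun was 3.38 (SE 0.76, adjusted p = 0.00913, edgeR), a 10.4-fold difference. Junb, often a weaker activator than Jun, had 4574, 3721 and 2081 CPM with CKI and 521, 377 and 1229.6 CPM with vehicle, again without overlap (log2 fold change 2.29, SE 0.74, adjusted p = 0.0450, edgeR). Jund had 34.9, 38.9 and 17.3 CPM with CKI and 10.3, 10.3 and 12.3 CPM with vehicle (log2 fold change 1.47, SE 0.46, adjusted p = 0.0379, edgeR). Jund did not overlap either, although CKI replicate 5 stood close to the vehicle group.

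Fos, the immediate early partner of the Jun proteins, had 9024, 7549.8 and 8627 CPM in Braf with CKI and 2885, 6897 and 5997 CPM in Braf with vehicle. Its groups did not overlap either, with the vehicle libraries spread more widely, but its log2 fold change of 0.68 (SE 0.39) was not called (adjusted p = 0.266, edgeR). In all, 4 members were higher in every CKI library, as were 18.1% of all genes. Fosb averaged 427 ± 117 CPM with CKI and 331 ± 44.0 CPM with vehicle, Fosl1 45.2 ± 10.9 CPM with CKI and 31.3 ± 18.8 CPM with vehicle, and Fosl2 49.5 ± 12.3 CPM with CKI and 43.7 ± 12.5 CPM with vehicle (SD, n = 3 each). These 3 overlapped between the groups, and their log2 fold changes had 95% intervals of -0.52 to 1.26 for Fosb, -0.64 to 1.71 for Fosl1 and -0.62 to 0.97 for Fosl2.

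Other immediate early genes moved with the Jun family in Braf. Of 19 immediate early and dissociation stress genes outside the AP-1 family, 6 rose and 0 fell with CKI, beside 7.96% of all genes called higher. Their median log2 fold change was 0.92 against -0.01 over all genes. Ier2, a short-lived nuclear protein, averaged 1292 CPM with CKI and 114 CPM with vehicle (log2 fold change 3.50, adjusted p = 0.0109, edgeR). The zinc finger factor Egr1 averaged 1817 CPM with CKI and 321 CPM with vehicle (log2 fold change 2.50, adjusted p = 0.0185, edgeR), and Dusp1, a phosphatase of MAP kinases, 647 CPM with CKI and 101 CPM with vehicle (log2 fold change 2.68, adjusted p = 0.0208, edgeR). Of 19 kinases and factors upstream of AP-1, Mapk10, a JNK kinase that phosphorylates Jun, rose by 2.59 on the log2 scale and Map2k2, a MEK kinase, by 2.32, and none fell. These 2 of 19 are a share near that of all genes, of which 13.0% were called in either direction and 7.96% higher. None of 12 tested dimer partners (of 13 listed, such as Atf2, Batf and Maf proteins) was called by edgeR, with 2 at an unadjusted p under 0.05 and 1 called lower by DESeq2.

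Markers of other cells moved with these changes. All 7 leukocyte markers fell with CKI in Braf, and their summed level was 166 to 305 CPM with CKI and 929 to 1481 CPM with vehicle. Macrophage markers summed to 169 to 392 CPM with CKI and 966 to 1389 CPM with vehicle (4 of 6 fell). The thyroid follicular markers summed to 8153 to 20888 CPM with CKI and 386 to 1143 CPM with vehicle (5 of 5 rose), and no marker of these 3 lists was at 0 in any library. In a fit that also held the mean leukocyte level, the log2 fold changes were 1.91 for Jun (adjusted p = 0.430, edgeR), 0.97 for Junb and 0.84 for Jund, none of them called. The slope of log2 level on transcript GC content, per 10 percentage points, was 0.21 to 0.26 in the CKI libraries and -0.14 to 0.06 in the vehicle libraries, so GC-rich genes as a whole stood higher with CKI. With this slope as a covariate, chosen after seeing the data, the values were 2.60 for Jun (adjusted p = 0.144, edgeR), 0.73 for Junb and 1.26 for Jund. The part of cell makeup, dissociation and GC content in the rise was not tested. Without vehicle replicate 2 no member was called, with adjusted p = 0.0507 for Jun (edgeR) at a log2 fold change of 3.09. Junb also lost its call without vehicle replicate 4 or CKI replicate 1 or 4 (adjusted p up to 0.145, edgeR), and Jund without each library but CKI replicate 5 (up to 0.128) and with the replicate number as a block (adjusted p = 0.0532, edgeR).

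**Figure D2:**
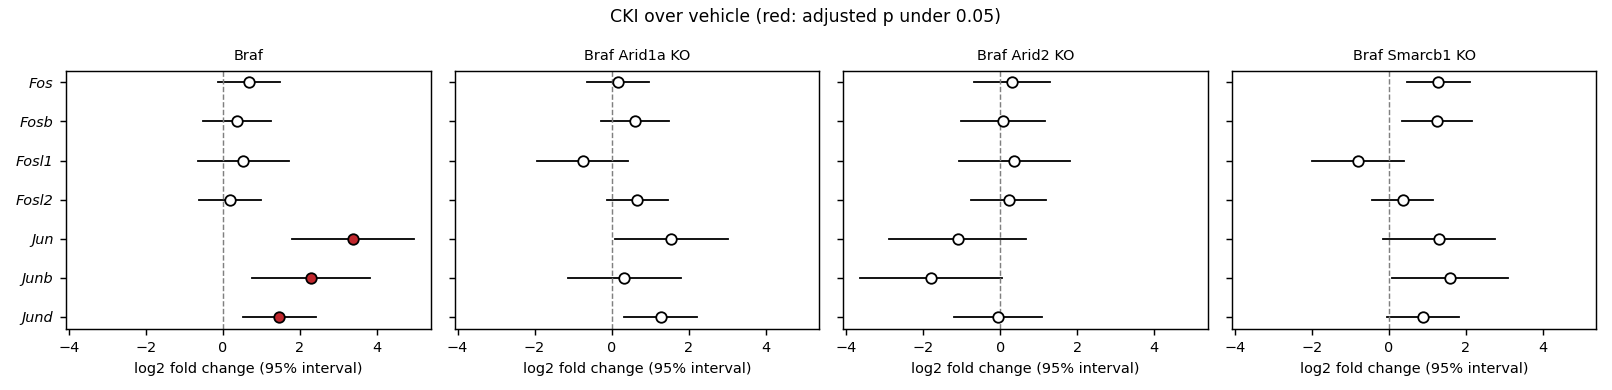
Log2 fold change of each member with CKI over vehicle in 4 genotypes, with its 95% interval; red marks an adjusted p under 0.05. Jun, Junb and Jund are called in Braf, no member is called in the other genotypes, and Jun and Junb lie below 0 in Braf Arid2 KO.

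In Braf Smarcb1 KO no member was called with CKI by edgeR, beside 3.85% of all genes, with 3 members at an unadjusted p under 0.05 and Fos and Fosb called higher by DESeq2. For 5 members the CKI libraries nevertheless all lay above the vehicle libraries, as they did for 11.5% of all genes. Fos had 5558, 6843 and 7615 CPM with CKI and 3259, 2744 and 2184 CPM with vehicle (log2 fold change 1.29, SE 0.40, adjusted p = 0.0714, edgeR). Jun had 1825, 1975 and 1631 CPM with CKI, its highest group mean of all, and 259.6, 991 and 949.6 CPM with vehicle (log2 fold change 1.30, SE 0.71, adjusted p = 0.349, edgeR). For Junb the values were 3247, 3855 and 3152 CPM with CKI and 529, 1568 and 1317 CPM with vehicle (log2 fold change 1.59, SE 0.72). Vehicle replicate 1 was low for all 3 Jun genes but highest of its group for Fos. Fosb averaged 455 ± 154 CPM with CKI and 191 ± 57.5 CPM with vehicle, and Jund 23.6 ± 2.17 CPM with CKI and 12.9 ± 7.05 CPM with vehicle (SD, n = 3 each). Fosl2 averaged 48.9 ± 17.2 CPM with CKI and 38.1 ± 10.4 CPM with vehicle, with overlap (log2 fold change 0.36, 95% interval -0.44 to 1.15). Fosl1 was low in both groups, with 5.78, 11.6 and 3.84 CPM with CKI and 16.2, 9.84 and 10.9 CPM with vehicle, which overlapped (log2 fold change -0.80, SE 0.57). Of the 19 other immediate early genes, Nr4a1, an orphan nuclear receptor, was the 1 called by edgeR and rose (513 CPM with CKI and 174 CPM with vehicle, log2 fold change 1.56, adjusted p = 0.0460, edgeR). The 19 had a median log2 fold change of 1.02 against 0.03 over all genes. Of them, 10 had an unadjusted p under 0.05 by edgeR, and DESeq2 called 3 higher and 0 lower. Leukocyte markers summed to 111 to 184 CPM with CKI and 127 to 433 CPM with vehicle, and the GC slope was 0.04 to 0.10 with CKI and -0.22 to -0.02 with vehicle. Their part in these values was not tested.

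In Braf Arid1a KO no member was called with CKI by edgeR or DESeq2, beside 4.51% of all genes called by edgeR, and Jun and Jund had an unadjusted p under 0.05. Jun had 219, 556 and 3446 CPM with CKI and 772, 354 and 311 CPM with vehicle (log2 fold change 1.55, SE 0.71, adjusted p = 0.215, edgeR). Junb had 508, 1442 and 5312 CPM with CKI and 2856, 1928 and 995 CPM with vehicle (log2 fold change 0.33, SE 0.71). Jund had 12.4, 16.3 and 58.8 CPM with CKI and 12.9, 8.88 and 14.4 CPM with vehicle. CKI replicate 5 held the highest level of Jun, Junb, Jund and Fosb of all 28 libraries, while CKI replicate 2 lay below every vehicle library for Jun and Junb. The groups overlapped for all 7 members. Without CKI replicate 5 the log2 fold changes were -0.31 for Jun and -0.98 for Junb, of the other sign, and 0.25 for Jund. Fos stayed high in both groups, with 6719, 13169.5 and 13953 CPM with CKI and 9881, 14225 and 6157 CPM with vehicle, and Fosl1 had 6.12, 30.5 and 39.7 CPM with CKI and 40.9, 48.8 and 38.7 CPM with vehicle (log2 fold change -0.75, SE 0.57). The Fosl1 level of CKI replicate 2 was well below the other 5 libraries. Fosb averaged 779.5 ± 352 CPM with CKI and 509.7 ± 129.9 CPM with vehicle, and Fosl2 44.3 ± 15.2 CPM with CKI and 27.8 ± 6.0 CPM with vehicle (SD, n = 3 each). None of the 19 other immediate early genes was called by edgeR or DESeq2, with 3 at an unadjusted p under 0.05. Leukocyte markers summed to 144 to 397 CPM with CKI and 471 to 1025 CPM with vehicle, and the GC slope was 0.04 to 0.22 with CKI and -0.10 to 0.10 with vehicle.

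In Braf Arid2 KO, with 2 libraries a group, Jun and Junb stood lower with CKI, though neither was called. Jun had 228 and 362 CPM with CKI and 621 and 647 CPM with vehicle (log2 fold change -1.10, SE 0.86, adjusted p = 0.487, edgeR). Junb had 573 and 1052 CPM with CKI and 3429 and 2205 CPM with vehicle (log2 fold change -1.79, SE 0.89, adjusted p = 0.252, edgeR). Neither gene overlapped between the groups, though with so few libraries 29.2% of all genes were likewise lower in both CKI libraries. No member was called by edgeR or DESeq2, beside 3.37% of all genes called by edgeR, and none had an unadjusted p under 0.05; with the 4 libraries fitted alone, Junb was called (adjusted p = 0.0401, edgeR). Fos had 4759.8 and 6742 CPM with CKI and 6069.8 and 3259 CPM with vehicle, and Fosb had 282 and 507 CPM with CKI and 617 and 130.4 CPM with vehicle. Jund had 13.8 and 16.5 CPM with CKI and 18.4 and 13.0 CPM with vehicle. These 3 overlapped. Fosl1 had 25.2 and 30.7 CPM with CKI and 16.5 and 27.1 CPM with vehicle, and Fosl2 had 41.5 and 66.4 CPM with CKI and 66.5 and 25.8 CPM with vehicle, also with overlap. Vehicle replicate 4 held far less Fosb and Fosl2 than vehicle replicate 2. Of the 19 upstream kinases and factors, Mapk10 rose with CKI (log2 fold change 4.18, adjusted p = 0.000225, edgeR), and none of the 19 other immediate early genes was called by edgeR or DESeq2 or had an unadjusted p under 0.05. Leukocyte markers summed to 163 to 174 CPM with CKI and 536 to 574 CPM with vehicle.

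Whether the response to CKI differed from that of Braf was tested as a difference of log2 fold changes, in which the same Braf libraries serve each genotype. In Braf Arid2 KO the responses of Jun and Junb were lower than in Braf: the difference was -4.48 for Jun (SE 1.16, adjusted p = 0.0217, edgeR) and -4.08 for Junb (SE 1.17, adjusted p = 0.0338, edgeR). That is 2 of 7 members, both lower, beside 8.66% of all genes called and 7.19% called lower. Jund differed by -1.52 (SE 0.71, unadjusted p = 0.0439, adjusted p = 0.190, edgeR). Of the 19 other immediate early genes, Ier2 (-4.93), Socs3 (-3.99), an inhibitor of cytokine signalling, and Dusp1 (-3.85) were also called lower. The upstream kinases Map2k1 (-3.19), Map2k2 (-3.74) and Map2k4 (-2.17) were called in the same direction. With the GC slope as a covariate, and without Braf Arid2 KO CKI replicate 3, edgeR called 0 of all genes for this difference, so the calls of these 6 genes ended there with those of Jun and Junb. The Jun call was lost without Braf CKI replicate 1, without Braf Arid2 KO vehicle replicate 2 and without either Braf Arid2 KO CKI library (adjusted p up to 0.171, edgeR), and the Junb call without these or without Braf vehicle replicate 2 or 4 or Braf CKI replicate 4 (up to 0.218). Their values without a library ran from -5.03 to -4.02 for Jun and from -4.71 to -3.72 for Junb. With the GC slope as a covariate the differences were -3.70 for Jun (adjusted p = 0.117, edgeR) and -2.45 for Junb (adjusted p = 0.151, edgeR), and with the leukocyte level -4.13 for Jun and -3.78 for Junb, both still called. The GC slope was 0.13 to 0.14 in Braf Arid2 KO with CKI and 0.04 to 0.26 with vehicle.

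In the other genotypes no member's response was called different from that of Braf. In Braf Arid1a KO edgeR called 0 members at 0% of all genes (0 genes, 2018 at an unadjusted p under 0.05 and 172 by DESeq2), and no member had an unadjusted p under 0.05. The difference was -1.82 for Jun (95% interval -3.88 to 0.23) and -1.96 for Junb (-4.05 to 0.13). Without Braf Arid1a KO CKI replicate 5, Jun differed by -3.68 (adjusted p = 0.0412, edgeR), a call. In Braf Smarcb1 KO edgeR and DESeq2 called 0 members, beside 0.305% of all genes by edgeR, and the difference was -2.07 for Jun (95% interval -4.13 to -0.02, unadjusted p = 0.0484, edgeR), -0.70 for Junb (-2.77 to 1.37) and 0.61 for Fos (-0.53 to 1.76).

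Some genes with textbook AP-1 sites fell with CKI in each of the 4 genotypes. Of 17 such genes, 6 fell in Braf (beside 13.0% of all genes called in either direction), 7 in Braf Arid1a KO (beside 4.51%), 2 in Braf Arid2 KO (beside 3.37%) and 5 in Braf Smarcb1 KO (beside 3.85%). EdgeR called none higher in any of these. DESeq2 called 7, 8, 4 and 6 of the 17 genes lower in the same order, and 1 higher in Braf Arid2 KO. Their median log2 fold changes were -1.31, -1.51, -1.66 and -1.78 in the same order, beside medians of all genes between -0.03 and 0.03. Spp1, the secreted phosphoprotein osteopontin, averaged 746 CPM with CKI and 39209 CPM with vehicle in Braf (log2 fold change -5.72, adjusted p = 0.00104, edgeR), and 98.4 CPM with CKI and 45169 CPM with vehicle in Braf Arid2 KO (log2 fold change -8.84, adjusted p = 0.00101, edgeR). Timp1, an inhibitor of matrix metalloproteinases, averaged 71.3 CPM with CKI and 579 CPM with vehicle in Braf (log2 fold change -3.02), and 242 CPM with CKI and 1846 CPM with vehicle in Braf Smarcb1 KO (-2.93). The mean log2(CPM + 1) of the 17 genes was 5.0 ± 0.09 with CKI and 6.59 ± 0.25 with vehicle in Braf, and 4.97 ± 0.29 with CKI and 6.0 ± 0.09 with vehicle in Braf Smarcb1 KO (SD, n = 3 each). In each of the 4 genotypes the CKI libraries lay below the vehicle libraries on this mean. Several of these genes, such as Spp1 and Hmox1, are also made by macrophages. Macrophage markers fell with CKI in 4 of 6 cases in Braf (median log2 fold change -2.02), 2 in Braf Arid1a KO (-1.28), 1 in Braf Arid2 KO (-1.13) and 0 in Braf Smarcb1 KO (-0.01; 1 at an unadjusted p under 0.05 by edgeR, and 0 by DESeq2). Their part was not tested. Between genotypes the response of these genes gave no call in edgeR, with 6, 3 and 1 at an unadjusted p under 0.05 in Braf Arid1a KO, Braf Arid2 KO and Braf Smarcb1 KO against Braf, and 1, 1 and 0 called by DESeq2.

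**Figure D3:**
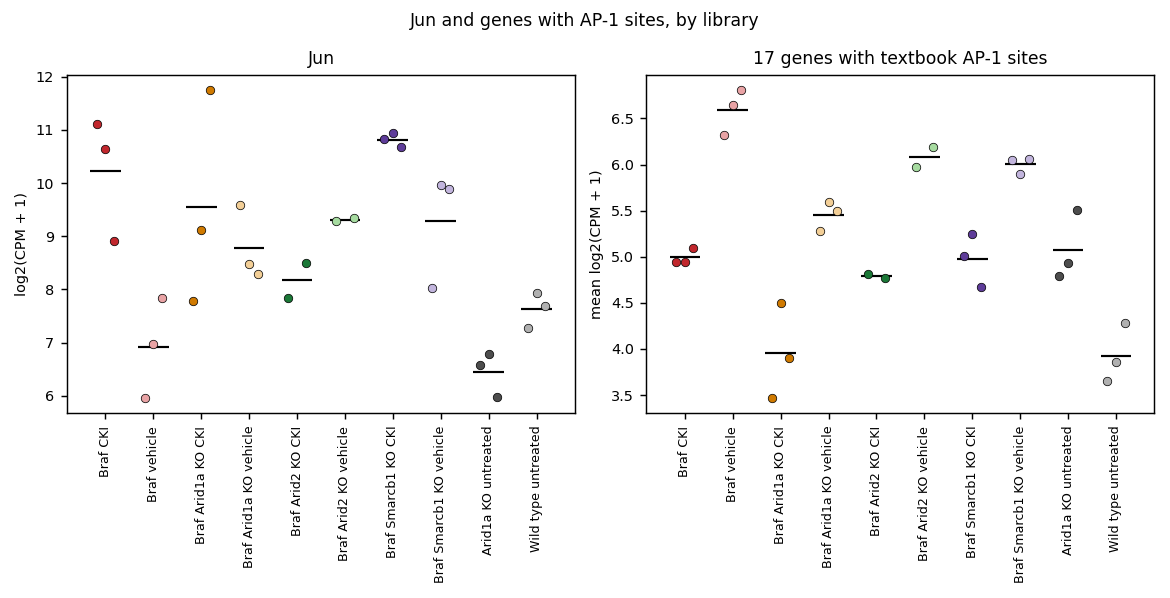
Left, Jun as log2(CPM + 1) in each library; right, the mean log2(CPM + 1) of 17 genes with textbook AP-1 sites in the same libraries. Points are libraries and lines are group means; the mean of the 17 genes is lower with CKI than with vehicle in all 4 genotypes, while the mean of Jun is higher in Braf and, with no call, lower in Braf Arid2 KO.

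Feedback genes of the MAPK cascade, a readout of ERK activity, were lower with CKI in part, and by their median in the 3 knockouts but not in Braf. The median log2 fold change was 0.21 in Braf, -0.94 in Braf Arid1a KO, -1.27 in Braf Arid2 KO and -1.22 in Braf Smarcb1 KO. Of 12, 3 fell and 1 rose in Braf, beside 13.0% of all genes called in either direction. In Braf Arid1a KO 4 fell (beside 4.51%), in Braf Arid2 KO 1 (beside 3.37%) and in Braf Smarcb1 KO 5 (beside 3.85%), with none called higher in these 3. DESeq2 called 3 lower and 1 higher in Braf, and 5, 6 and 8 lower and 0 higher in the 3 knockouts in that order. Unadjusted p by edgeR was under 0.05 for 6 of the 12 in Braf and for 7, 8 and 9 in the knockouts. Etv4, an ETS factor induced by ERK, averaged 2.55 CPM with CKI and 29.8 CPM with vehicle in Braf (log2 fold change -3.54, adjusted p = 0.00220, edgeR), and Spred1, an inhibitor of Ras signalling, 33.6 CPM with CKI and 86.8 CPM with vehicle (-1.37). Phlda1, another ERK target, averaged 121 CPM with CKI and 27.1 CPM with vehicle in Braf and was called higher (2.15, adjusted p = 0.0107, edgeR).

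Loss of a SWI/SNF subunit was compared with Braf alone under vehicle, with the same Braf libraries in all 3 comparisons. Jun stood higher in all 3, and was called in Braf Smarcb1 KO. It averaged 733 ± 411 CPM in Braf Smarcb1 KO, 479 ± 255 CPM in Braf Arid1a KO and 634 ± 18.7 CPM in Braf Arid2 KO, against 138 ± 83.9 CPM in Braf (SD, n = 3, 3, 2 and 3). Each knockout library lay above all 3 Braf libraries given earlier, and Jun was 1 of 2 such members in Braf Arid1a KO (beside 15.4% of all genes) and 1 of 3 in Braf Arid2 KO (beside 19.1%). The log2 fold change over Braf was 2.41 in Braf Smarcb1 KO (SE 0.73, adjusted p = 0.0169, edgeR), 1.80 in Braf Arid1a KO (SE 0.72, adjusted p = 0.117) and 2.20 in Braf Arid2 KO (SE 0.78, adjusted p = 0.101). That was 1 of 7 members called in Braf Smarcb1 KO, beside 28.6% of all genes (14.4% higher), 0 of 7 in Braf Arid1a KO, beside 9.56%, and 0 of 7 in Braf Arid2 KO, beside 3.61%. In the last 2, edgeR gave 2 members each an unadjusted p under 0.05, and DESeq2 called 0 and 1 (Jun, adjusted p = 0.0414). The Smarcb1 call was lost without Braf vehicle replicate 2 or 4 or Braf Smarcb1 KO vehicle replicate 2 (adjusted p up to 0.0661, edgeR) and with the leukocyte covariate (log2 fold change 1.32, adjusted p = 0.325, edgeR). Leukocyte markers summed to 127 to 433 CPM in Braf Smarcb1 KO and 929 to 1481 CPM in Braf (5 of 7 fell), and thyroid follicular markers to 120.4 to 202 CPM in Braf Smarcb1 KO and 386 to 1143 CPM in Braf. Fibroblast markers were lower than in Braf in all 3 knockouts, with median log2 fold changes of -2.51 in Braf Smarcb1 KO, -4.14 in Braf Arid1a KO and -3.56 in Braf Arid2 KO (3, 5 and 2 of 6 called). The medians of 5 endothelial markers were -2.20, -3.83 and -2.84 in the same order (3, 3 and 0 called by edgeR, the last with 4 at an unadjusted p under 0.05 and 4 by DESeq2). Both lists varied widely within Braf, where fibroblast markers summed to 877 to 21465 CPM. The part of these cells, and that of the preparation, was not tested.

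Members of the Fos family were not called in Braf Smarcb1 KO and stood lower there. Fos had 3259, 2744 and 2184 CPM in Braf Smarcb1 KO and 2885, 6897 and 5997 CPM in Braf, both with vehicle, and its groups overlapped (log2 fold change -0.95, SE 0.39, adjusted p = 0.0757, edgeR). Fosb averaged 191 ± 57.5 CPM in Braf Smarcb1 KO and 331 ± 44.0 CPM in Braf, with no overlap, and Fosl1 12.3 ± 3.40 CPM in Braf Smarcb1 KO and 31.3 ± 18.8 CPM in Braf (SD, n = 3 each). Fosb and Jun were the 2 members without overlap, beside 36.5% of all genes. Fosl2 averaged 38.1 ± 10.4 CPM in Braf Smarcb1 KO and 43.7 ± 12.5 CPM in Braf, with overlap. DESeq2 called Fos and Fosl1 lower. The ratio of Fos to Jun differed in every library: Fos was 12.6, 2.77 and 2.30 times Jun in the Braf Smarcb1 KO vehicle libraries, against 47.0, 55.7 and 26.4 times in Braf. Of the 12 dimer partners tested, 4 fell in Braf Smarcb1 KO, a share near the 28.6% of all genes called, among them Atf3, a stress-induced partner of Jun (650.05 CPM, against 2311 CPM in Braf, log2 fold change -1.83, adjusted p = 0.0187, edgeR), and Batf, a partner in lymphocytes (-1.83). Junb averaged 1138 ± 542 CPM in Braf Smarcb1 KO, 1926 ± 930.2 CPM in Braf Arid1a KO and 2817 ± 865 CPM in Braf Arid2 KO, against 709 ± 457 CPM in Braf. Its Braf Arid2 KO libraries lay above those of Braf and the other groups overlapped with Braf. Fos averaged 10088 ± 4038 CPM in Braf Arid1a KO and 5259.7 ± 2105 CPM in Braf (log2 fold change 0.94, SE 0.39, adjusted p = 0.138, edgeR). Fosl1 averaged 42.8 ± 5.34 CPM in Braf Arid1a KO and 21.8 ± 7.50 CPM in Braf Arid2 KO, against 31.3 ± 18.8 CPM in Braf, and Fosl2 27.8 ± 6.0 CPM in Braf Arid1a KO and 46.2 ± 28.8 CPM in Braf Arid2 KO, against 43.7 ± 12.5 CPM in Braf. Neither gene separated a knockout from Braf.

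**Figure D4:**
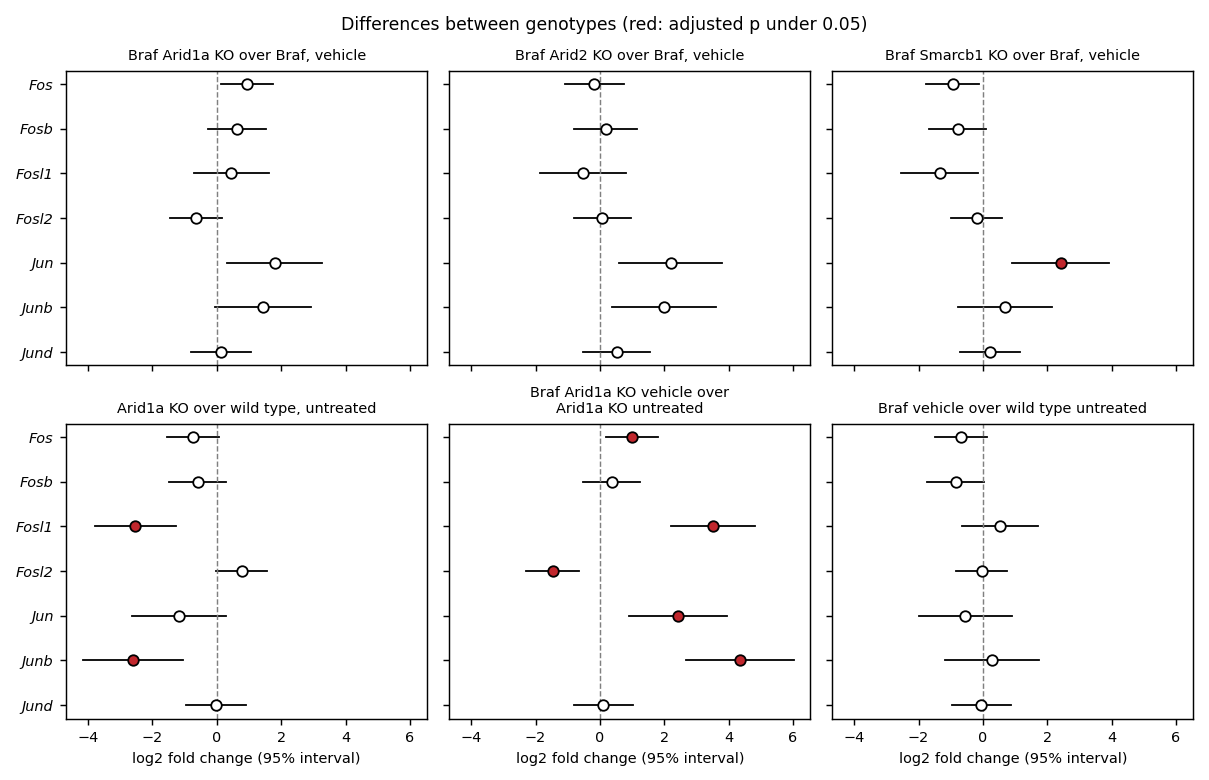
Log2 fold change of each member between genotypes, with its 95% interval; red marks an adjusted p under 0.05. Jun is called in Braf Smarcb1 KO over Braf, Fosl1 and Junb are lower in Arid1a KO than in wild type, and 5 members differ between Braf Arid1a KO with vehicle and untreated Arid1a KO.

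Between Braf with vehicle and untreated wild type, edgeR and DESeq2 called no member, and none had an unadjusted p under 0.05, beside 20.0% of all genes called by edgeR. Fos had 2885, 6897 and 5997 CPM in Braf and 9627, 6769.6 and 9091 CPM in wild type (log2 fold change -0.69, 95% interval -1.51 to 0.12). Jun had 61.4, 124 and 228 CPM in Braf and 154, 244 and 205 CPM in wild type (log2 fold change -0.55, 95% interval -1.99 to 0.90). Fosl1, which follows lasting ERK activity in many cells, had 48.9, 11.6 and 33.4 CPM in Braf and 19.1, 19.0 and 26.9 CPM in wild type (log2 fold change 0.53, 95% interval -0.65 to 1.71). All 3 overlapped, and Fosb lay lower in every Braf library (331 ± 44.0 CPM, against 597 ± 47.4 CPM in wild type; 1 of 7 members below in every library, beside 20.7% of all genes); with the 6 libraries fitted alone it was called (adjusted p = 0.0420, edgeR). Junb averaged 709 ± 457 CPM in Braf and 580.3 ± 218 CPM in wild type, and Jund 11.0 ± 1.14 CPM in Braf and 11.3 ± 0.795 CPM in wild type (SD, n = 3 each). In the same comparison 10 of the 17 genes with AP-1 sites rose and none fell (median log2 fold change 2.79), and 6 of 12 MAPK feedback genes rose. Ccnd1, the cell cycle regulator cyclin D1, averaged 439 CPM in Braf and 39.5 CPM in wild type, a log2 fold change of 3.47 (adjusted p = 6.13e-05, edgeR). Treatment, preparation and genotype cannot be told apart in this comparison. Fibroblast markers summed to 877 to 21465 CPM in Braf and 722 to 1417 CPM in wild type (5 of 6 rose). All 5 endothelial markers (median log2 fold change -2.64), 2 of 2 parathyroid markers (-6.93) and 4 of 5 thyroid follicular markers were called lower. Called higher were 3 of 7 leukocyte, 1 of 6 macrophage and 1 of 3 neutrophil markers. C cell markers summed to 11.6 to 82.8 CPM in Braf and 7622 to 30271 CPM in wild type (1 of 2 lower, 1 higher). The part of these cells was not tested.

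Arid1a KO without the Braf allele had less Fosl1 and Junb than wild type. Fosl1 had 3.22, 6.66 and 1.30 CPM in Arid1a KO and 19.1, 19.0 and 26.9 CPM in wild type, a log2 fold change of -2.53 (SE 0.60, adjusted p = 0.00678, edgeR). Junb had 40.8, 213 and 29.99 CPM in Arid1a KO and 329, 724 and 688 CPM in wild type, a log2 fold change of -2.62 (SE 0.75, adjusted p = 0.0182, edgeR). Both were lower in each Arid1a KO library, in which replicate 2 stood highest. These were 2 of 7 members, both lower, beside 18.6% of all genes called and 11.8% called lower. Of all genes called, 36.8% were higher, against 43.6% with RLE size factors, 63.2% in the compared groups alone and 97.8% with the GC slope as a covariate. Jun had 94.4, 109 and 61.6 CPM in Arid1a KO and 154, 244 and 205 CPM in wild type (log2 fold change -1.19, SE 0.71, adjusted p = 0.257, edgeR). Jun, Junb, Fosl1 and Fosb, 4 of 7 members, were lower in every Arid1a KO library, as were 21.4% of all genes. Fos had 3109, 8432 and 3631 CPM in Arid1a KO and 9627, 6769.6 and 9091 CPM in wild type, where replicate 2 of Arid1a KO fell among the wild type. Without that library Fos was called lower (log2 fold change -1.30, adjusted p = 0.0201, edgeR) and Fosl2 higher (1.09, adjusted p = 0.0481, edgeR). Fosl2 had 104, 45.1 and 82.6 CPM in Arid1a KO and 39.8, 38.3 and 57.2 CPM in wild type, and Fosb averaged 395 ± 113 CPM in Arid1a KO and 597 ± 47.4 CPM in wild type. Jund averaged 11.2 ± 1.57 CPM in Arid1a KO and 11.3 ± 0.795 CPM in wild type. Jund was close to level, with a log2 fold change of -0.02 that turned positive under RLE size factors and DESeq2.

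Other cells and GC content differed strongly between Arid1a KO and wild type. All 7 leukocyte markers were higher, summing to 2468 to 4357 CPM in Arid1a KO and 368 to 634 CPM in wild type, and fibroblast markers summed to 9773 to 13228 CPM in Arid1a KO and 722 to 1417 CPM in wild type. The GC slope was -0.60 to -0.15 in Arid1a KO and -0.01 to 0.12 in wild type, so GC-rich genes stood low in Arid1a KO, and Junb, at 62.6% GC, is richer than the median tested gene at 50.2%. With the leukocyte covariate, log2 fold changes were -1.71 for Fosl1 and -1.19 for Junb, and with the GC slope -1.67 and -0.26, none of them called. Their part in the difference was not tested. Both calls were lost without Arid1a KO replicate 3 (adjusted p = 0.0562 for Fosl1 and 0.108 for Junb, edgeR), and that of Junb also without Arid1a KO replicate 1 or wild-type replicate 2 and with the 6 libraries fitted alone (adjusted p = 0.0501, edgeR).

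In Braf Arid1a KO with vehicle, Fosl1, Junb and Jun were higher and Fosl2 was lower than in untreated Arid1a KO, with a call for Fos that most alternatives ended. Treatment, preparation and genotype cannot be told apart in this comparison. Fosl1 had 40.9, 48.8 and 38.7 CPM in Braf Arid1a KO with vehicle and 3.22, 6.66 and 1.30 CPM in untreated Arid1a KO (log2 fold change 3.52, SE 0.63, adjusted p = 0.000174, edgeR), a 11.4-fold difference. Junb had 2856, 1928 and 995 CPM in Braf Arid1a KO and 40.8, 213 and 29.99 CPM in Arid1a KO, the widest gap of any member in any comparison of 2 groups (log2 fold change 4.35, SE 0.81, adjusted p = 0.000260, edgeR). Jun had 772, 354 and 311 CPM in Braf Arid1a KO and 94.4, 109 and 61.6 CPM in Arid1a KO (log2 fold change 2.44, SE 0.73, adjusted p = 0.0110, edgeR). None of these 3 overlapped, and with Fosl2 they were the 4 members without overlap, beside 52.3% of all genes. Fosl2 had 22.5, 34.3 and 26.7 CPM in Braf Arid1a KO and 104, 45.1 and 82.6 CPM in Arid1a KO, the reverse order, also without overlap (log2 fold change -1.47, SE 0.39, adjusted p = 0.00480, edgeR). Fos had 9881, 14225 and 6157 CPM in Braf Arid1a KO and 3109, 8432 and 3631 CPM in Arid1a KO and overlapped; its log2 fold change of 1.0 was just called (adjusted p = 0.0480, edgeR) and was lost in 6 of 7 alternatives, all but DESeq2, with an adjusted p of 0.0527 with the replicate number as a block up to 0.952 with the GC slope (log2 fold change 0.06, edgeR). It was also lost without Braf Arid1a KO vehicle replicate 1 or 2 or Arid1a KO replicate 1 or 3. These 5 of 7 stand beside 40.5% of all genes called, 21.3% higher and 19.2% lower. With RLE size factors the median shift of the log2 fold changes of the 7 members was -0.11. Fosb averaged 509.7 ± 129.9 CPM in Braf Arid1a KO and 395 ± 113 CPM in Arid1a KO, and Jund 12.1 ± 2.85 CPM in Braf Arid1a KO and 11.2 ± 1.57 CPM in Arid1a KO. Jund was close to level, with a log2 fold change of 0.11 that was just below 0 under RLE size factors and DESeq2.

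Fosl1, Fosl2 and Junb kept their calls in this comparison without each library in turn and under all 7 other alternatives, the leukocyte and GC covariates included. Jun lost its call without Braf Arid1a KO vehicle replicate 1 or Arid1a KO replicate 3 (adjusted p = 0.0654 and 0.0507, edgeR) and with either covariate. Of the 12 dimer partners, Atf3 was among 2 that rose, at 3004 CPM in Braf Arid1a KO and 362 CPM in Arid1a KO (log2 fold change 3.05, adjusted p = 0.000364, edgeR), and 5 fell, among them Maf (-2.31). Over all genes 21.3% were called higher and 19.2% lower. MAPK feedback genes rose in 8 of 12 cases, such as Dusp6, a phosphatase of ERK (944 CPM in Braf Arid1a KO and 52.7 CPM in Arid1a KO, log2 fold change 4.16). All 6 macrophage and all 6 fibroblast markers were lower in Braf Arid1a KO, with fibroblast markers at 321 to 778 CPM in Braf Arid1a KO and 9773 to 13228 CPM in Arid1a KO. Also lower were 5 of 5 endothelial markers (median log2 fold change -5.82), 2 of 2 parathyroid markers (-5.84) and 6 of 7 leukocyte markers. C cell markers summed to 14.8 to 76.3 CPM in Braf Arid1a KO and 4223 to 11744 CPM in Arid1a KO (1 of 2 lower, 1 higher). The part of these cells in the difference was not tested.

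Ordered by group mean over all 10 groups, Jun was highest in Braf Smarcb1 KO with CKI and lowest in untreated Arid1a KO, and each neighbouring pair of groups in this order overlapped. Junb was highest in Braf with CKI and lowest in Arid1a KO, the only group separate from its neighbour, wild type. Fosl1 was highest in Braf with CKI, and Braf Smarcb1 KO with vehicle, Braf Smarcb1 KO with CKI and Arid1a KO were the lowest 3. Of its neighbours only wild type and the next group, Braf Smarcb1 KO with vehicle (up to 16.2 CPM), were apart. Braf Arid1a KO with CKI, higher in mean, reached down to 6.12 CPM. The highest 3 groups of Jund were Braf, Braf Arid1a KO and Braf Smarcb1 KO, all with CKI. Of these, Braf Smarcb1 KO (from 21.1 CPM) was apart from the next group, Braf Arid2 KO with vehicle (up to 18.4 CPM). Braf and Braf Arid1a KO with CKI, from 17.3 and 12.4 CPM, overlapped with that group. Fosb was highest in Braf Arid1a KO with CKI and lowest in Braf Smarcb1 KO with vehicle, which lay apart from Braf with vehicle. Fos had the same highest and lowest groups, with overlap between all neighbours, as did Fosl2, highest in Arid1a KO and lowest in Braf Arid1a KO with vehicle.

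Among the members, levels followed each other over the 28 libraries within the Jun family more than between families. On log2(CPM + 1), Pearson's r was 0.87 for Jun with Junb (Spearman's rho 0.93) and 0.79 for Jun with Jund (rho 0.80). For Junb with Jund it was 0.61 (rho 0.77). Between the families r was highest for Fosl1 with Junb, at 0.56 (rho 0.40), and was 0.27 for Fos with Jun (rho 0.21). Within the Fos family it was 0.75 for Fos with Fosb (rho 0.63) and -0.43 for Fosl1 with Fosl2 (rho -0.32). The libraries share groups and depth, so these are descriptions with no test. After taking out group means, r was 0.82 for Jun with Junb, 0.44 for Fos with Fosb and 0.75 for Fosb with Fosl2. It was then 0.61 for Fosl1 with Junb and 0.59 for Junb with Jund, so not every Jun pair stayed above every pair between families. Among all tested genes outside the family, Junb was most like Ier2 (r 0.97), Fosl1 most like Atf3 (0.95), Fos most like Zfp36 (0.87), Jund most like Dusp1 (0.92), Jun most like Clasrp (0.96), Fosb most like Lmo7 (0.80) and Fosl2 most like Zfp703 (0.80). Jun was almost as close to Trim11 and Thap11 (0.96 each).

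The GC slope of a library moved with most members. Over the 28 libraries r with log2(CPM + 1) was 0.82 for Junb (rho 0.67), 0.61 for Fosl1 (rho 0.46), 0.59 for Jun (rho 0.53), 0.55 for Fos (rho 0.44) and 0.50 for Jund (rho 0.56), with 0.29 for Fosb (rho 0.38) and -0.17 for Fosl2 (rho 0.25). The libraries fell apart in part, since Arid1a KO replicates 1 and 3 lay far below the rest in slope. These values are descriptions over libraries that share groups, with no test. All 7 genes were above the median GC of 50.2%, from 51.9% for Fos to 67.1% for Jund.

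**Figure D5:**
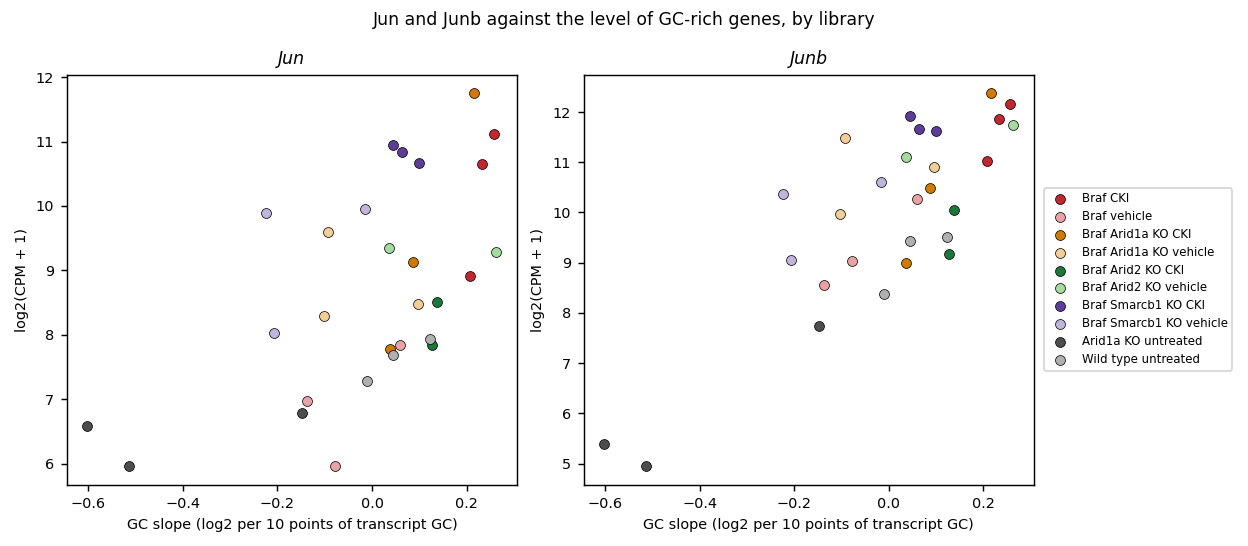
Jun (left) and Junb (right) as log2(CPM + 1) against the slope of log2 level on transcript GC content, for each library, coloured by group. Braf with CKI lies to the right, beside single libraries of other groups, with Jun from 8.91 in replicate 5 to 11.1 in replicate 1. Arid1a KO is low in Jun and Junb, with replicates 1 and 3 far to the left and replicate 2 (slope -0.15) among other groups. Junb follows the slope more closely than Jun.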

How the data were processed

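RNA-seq libraries from mouse thyroid were aligned with STAR 2.4 to build mm9 and counted with HTSeq 0.6.1, which made the raw gene counts that the authors deposited, per the submitters' processing notes. How strand and multiply mapped reads were counted is not given in the sources used here. The labels list 30 samples and the count table holds 28 libraries, each matched to its sample by name, with 23879271 to 34400066 counts. The 2 other samples, of Braf Arid2 KO, are not analysed here.

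Genes were filtered with filterByExpr (minimum count 10, total 15), scaled by TMM (factors 0.723 to 1.25) and tested with edgeR 4.0.16 (quasi-likelihood) in R 4.3.3. All 28 libraries entered 1 fit with a term per group. P-values were adjusted by Benjamini-Hochberg within each of 13 comparisons over all 19016 genes tested, with a threshold of 0.05. Levels per kb divide by exon length in GENCODE M21 (GRCm38), matched by symbol. The results were recomputed with DESeq2 1.42.0, with RLE size factors, without the filter, in the compared groups alone, with the replicate number as a block, without each library and with a covariate for the leukocyte level. A covariate for the slope of level on GC content was chosen after seeing the data.

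The members and gene lists were chosen with earlier results of these data known. One thyroid follicular marker of the original list is not reported here and enters no sum. Named are the 7 members, up to 4 called genes of each list with the smallest adjusted p in a comparison, the 3 genes most correlated with each member and the 3 targeted genes. Within groups, all 26 pairs of replicates differed far beyond counting noise, with chi-square over its degrees of freedom of 87.0 to 404. Replicate numbers come from the labels, which do not say that they mark shared animals or days. Between Braf Arid1a KO with vehicle and Arid1a KO, same-numbered libraries deviated together in all 3 pairs (correlations 0.13 to 0.19), so the blocked value is given where it changes a call.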

Additional observations from a re-analysis of the deposited data

Results flagged for a closer look

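The response to CKI differed between Braf Arid2 KO and Braf, by a test of the difference itself, in 12 genes named here. The difference in log2 fold change was -4.48 for Jun and -4.08 for Junb (adjusted p = 0.0217 and 0.0338, edgeR). Jun was lower with CKI in both Braf Arid2 KO libraries and higher with CKI in all 3 Braf libraries, as was Junb. Among upstream kinases the difference was -3.19 for Map2k1, -3.74 for Map2k2 and -2.17 for Map2k4. It was -3.99 for Socs3, -4.93 for Ier2 and -3.85 for Dusp1 among the other immediate early genes. The MAPK feedback genes gave -2.45 for Spred2, -2.67 for Spry4, -2.70 for Phlda1 and -2.26 for Dusp6. Adjusted p ran from 0.0165 to 0.0484 over these 12 (edgeR), which share the same 10 libraries. All 12 calls ended with the GC slope as a covariate and without Braf Arid2 KO CKI replicate 3, where edgeR called 0 of all genes.

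Spry4, an inhibitor of receptor signalling to Ras, also differed between Braf Smarcb1 KO and Braf, with a difference of -3.51 (adjusted p = 0.0165, edgeR). Between Braf Arid2 KO and Braf Smarcb1 KO, Jun moved in opposite directions with CKI in every library, with log2 fold changes of -1.10 in Braf Arid2 KO and 1.30 in Braf Smarcb1 KO. Junb did the same, with -1.79 in Braf Arid2 KO and 1.59 in Braf Smarcb1 KO. For both genes this difference between the 2 knockouts was not tested.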

How the results depend on the processing

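Counts of genes called moved with the choice of test, and the cause was not tested apart from fewer samples in the fits that leave samples out. DESeq2 called 3917 genes for CKI in Braf against 2466 by edgeR, 1854 in Braf Arid1a KO (858), 1806 in Braf Arid2 KO (640) and 1621 in Braf Smarcb1 KO (732, with 2 members against 0). Under vehicle it called 2910 genes between Braf Arid1a KO and Braf (1818), 2120 between Braf Arid2 KO and Braf (686, with 1 member against 0), and 3 members between Braf Smarcb1 KO and Braf (1). For differences of response it called 172 genes in Braf Arid1a KO (0), 2949 in Braf Arid2 KO (1647) and 268 in Braf Smarcb1 KO (58).

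The GC slope as a covariate left 190 genes and 0 members for CKI in Braf, 464 genes in Braf Smarcb1 KO, 74 between Braf Arid2 KO and Braf, 46 (45 higher) with 0 members between Arid1a KO and wild type, 3733 with 3 members between Braf Arid1a KO and Arid1a KO, and 0 genes and 0 members for the difference of Braf Arid2 KO, while 2 members were called between Braf Smarcb1 KO and Braf. The leukocyte covariate left 89 genes and 0 members for CKI in Braf, 271 genes in Braf Arid1a KO, 94 between Braf Arid2 KO and Braf, 1847 with 0 members between Braf Smarcb1 KO and Braf, 2517 between Braf and wild type, 4 with 0 members between Arid1a KO and wild type, 4354 with 3 members between Braf Arid1a KO and Arid1a KO, and 3 and 10 for the differences of Braf Arid1a KO and Braf Smarcb1 KO. Without the filter 1 gene was called for the difference of Braf Arid1a KO.

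Fitting only the compared groups gave 1367 genes for CKI in Braf, 527 in Braf Arid1a KO, 1651 with 1 member in Braf Arid2 KO and 2 in Braf Smarcb1 KO. It gave 829, 1 and 2335 genes for Braf Arid1a KO, Braf Arid2 KO and Braf Smarcb1 KO against Braf, 1 member between Braf and wild type, 2333 genes (1474 higher) between Arid1a KO and wild type and 5 for the difference of Braf Smarcb1 KO. The replicate block gave 177 genes for CKI in Braf Arid1a KO, 339 in Braf Smarcb1 KO, 1095 between Braf Arid1a KO and Braf, 31 for the difference of Braf Smarcb1 KO and 1 member between Braf Arid2 KO and Braf. Apart from Fos and Jund above and Jun between Braf Arid2 KO and Braf (log2 fold change 2.85, adjusted p = 0.0489, edgeR), the block changed no member's call. Deviations of same-numbered libraries correlated at 0.06 to 0.24 between Arid1a KO and wild type and at -0.54 to 0.05 in the comparisons with fewer shared numbers.

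Leaving out 1 library at a time, where a lone Arid2 library is assumed to vary like the other groups, gave 726 to 2453 genes and 0 to 3 members for CKI in Braf, 256 to 756 genes in Braf Arid1a KO, 65 to 349 in Braf Arid2 KO and 233 to 923 in Braf Smarcb1 KO. Against Braf it gave 737 to 1637 genes in Braf Arid1a KO, 38 to 874 in Braf Arid2 KO and 3889 to 5140 with 0 to 1 members in Braf Smarcb1 KO. It gave 2359 to 3809 genes between Braf and wild type, 1115 to 4854 with 0 to 4 members between Arid1a KO and wild type, and 6090 to 7849 with 3 to 5 members between Braf Arid1a KO and Arid1a KO. The differences gave 0 to 275 genes with 0 to 1 members in Braf Arid1a KO, 0 to 2050 with 0 to 2 members in Braf Arid2 KO and 19 to 77 in Braf Smarcb1 KO. Over 637 members' values with a library left out, 34 calls were lost, 5 gained and 45 uncalled values turned sign, and over 637 under the other alternatives 23 were lost, 10 gained and 44 turned. No called value turned sign. RLE size factors moved no split of higher against lower calls by over 10 percentage points.

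Groups held 2 or 3 libraries, and members had at least 31 counts in every library, the lowest for Fosl1; what limits the calls was not tested. Fosl1 and Jund, and over a smaller part Jun and Junb, share exon bases with genes on the other strand.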
